A study of Mus musculus with 16 samples.

Results

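The genes described here encode the whey protein Wap and 6 other soluble proteins of mouse milk (Lalba, Glycam1, Trf, Ltf, Cel and Spp1). They were chosen by name, 7 of the 22196 genes summed from the deposited transcripts, and all 7 passed the filter on low counts that left 12506 genes for testing. RNA of whole inguinal mammary glands was sequenced in 16 libraries. The title places the glands in mid-lactation, and the age label reads postnatal day 16 without saying whether this is the age of a mother or of her litter. Diet was crossed with treatment, with 4 libraries in each group: NCD control, NCD metformin, HFD control and HFD metformin, where HFD is a high fat diet given during lactation, NCD is not expanded in the labels, and metformin is a glucose-lowering drug. No strain, allele, dose or route is given in the sources used here. No label ties a library to an animal of its own, and the p-values therefore describe the spread between these samples alone, which may be technical.

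Milk proteins fall into the caseins, which form micelles with calcium phosphate, and the proteins that stay in solution in whey. In the lactating gland the secretory epithelium makes both kinds under prolactin, which acts through the kinase JAK2 and the transcription factor STAT5, together with glucocorticoids and nuclear factor I. The soluble proteins differ in function: Wap is the main whey protein of mouse milk, Lalba turns a galactosyltransferase into lactose synthase, Glycam1 is a mucin-like glycoprotein, Trf and Ltf bind iron, Cel is a lipase that digests milk fat in the gut of the young and Spp1 is the phosphoprotein osteopontin.

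Glycam1 was the member that passed the test between groups, so the sequence upstream of its start is shown, with those of Wap and Lalba beside it. The windows are from RefSeq on GRCm38.p6, which held a promoter for 6 of the 7 members, and they keep only bases upstream of both the RefSeq and the GENCODE M21 start. All 3 genes lie on the minus strand, and the letters read 5′ to 3′ toward the gene. Capitals mark a match to TTCNNNGAA, the element bound by STAT5, or to TTGGCA, an element bound by nuclear factor I, on either strand.
Glycam1 (chr15:103565082-103565331): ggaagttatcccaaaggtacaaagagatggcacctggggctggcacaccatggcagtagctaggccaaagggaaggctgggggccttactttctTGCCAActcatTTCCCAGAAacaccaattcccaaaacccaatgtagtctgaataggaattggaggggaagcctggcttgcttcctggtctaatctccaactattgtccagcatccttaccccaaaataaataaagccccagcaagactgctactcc
Lalba (chr15:98482722-98482933): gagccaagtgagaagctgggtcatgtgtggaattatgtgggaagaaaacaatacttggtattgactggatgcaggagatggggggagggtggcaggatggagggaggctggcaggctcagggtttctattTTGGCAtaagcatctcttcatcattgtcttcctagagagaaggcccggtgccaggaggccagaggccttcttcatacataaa
Wap (chr11:6638650-6638899): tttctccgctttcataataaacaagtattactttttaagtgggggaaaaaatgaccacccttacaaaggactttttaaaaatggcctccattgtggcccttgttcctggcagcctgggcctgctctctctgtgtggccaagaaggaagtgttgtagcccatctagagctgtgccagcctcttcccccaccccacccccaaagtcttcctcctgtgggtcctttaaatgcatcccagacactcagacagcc

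The STAT5 element in the Glycam1 window is TTCCCAGAA, with its first base 145 bases before the end of the window. A nuclear factor I element, read on the other strand as TGCCAA, ends 5 bases upstream of it and the matches do not overlap. The Lalba window holds 1 nuclear factor I element and no STAT5 element. No match to TTCNNNGAA or TTGGCA was found in the windows of Wap, Ltf, Cel or Spp1, and none to TGTTCT, an element bound by the glucocorticoid receptor, in any of the 6 windows. Another RefSeq promoter of Spp1 had no base upstream of the GENCODE M21 start and was not searched. Among 32851 RefSeq promoters, 7.02% held TTCNNNGAA, 12.3% held TTGGCA and 16.1% held TGTTCT in the 250 bases before the start, and 10.9% held TTGGCA in a window of 212 bases, the length of the Lalba window. A match is a description of letters and says nothing of binding in these glands. The windows held at most 250 bases, and elements farther upstream were not searched for.

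Totals over genes ranged from 8649316 counts in HFD control 4 to 39156617 in NCD metformin 4, with a median of 28944266. All 10 markers of luminal secretory epithelium were above the low-count filter, with summed levels of 3821 to 5845 CPM (read counts scaled to a common library total after TMM normalization) across the 16 libraries. The 12 adipocyte markers summed to 2652 to 4151 CPM and the 9 markers of myoepithelial and basal cells to 383 to 777 CPM. In bulk tissue, fewer cells of a type and less RNA per cell cannot be told apart. NCD control 3 stood apart with 3671 CPM summed over 12 skeletal muscle markers, against 0.868 to 139 CPM in the other 15 libraries.

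Per length, the soluble milk proteins were dominated by Wap. Their order in mean TPM (a length-corrected share of transcripts, which allows genes to be compared) over the 16 libraries was Wap at 266080, Trf at 16084, Lalba at 12639, Glycam1 at 5667, Cel at 230, Ltf at 167 and Spp1 at 3.56. Wap was above Trf in 16 of 16 libraries, Lalba above Glycam1 in 15 and Cel above Ltf in 14, while Trf was above Lalba in 13. Trf and Lalba, Lalba and Glycam1, and Cel and Ltf are neighbours whose ranges over libraries overlapped, from 10504 to 19259 TPM for Trf, 9468 to 16516 for Lalba and 2317 to 11917 for Glycam1, and from 99.4 to 318 TPM for Cel against 88 to 255 for Ltf. Salmon's effective length for Wap was 110 to 126 bases, out of 405 coding bases, so the TPM of this short transcript rests on a strong length adjustment. By estimated counts, Wap and Trf were close, with means over all libraries of 101457 and 94546 CPM.

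On NCD the 7 genes together took 29.3 ± 1.19% of TPM in the control group and 28.9 ± 1.13% with metformin (SD, n = 4). On HFD the shares were 31.3 ± 2.04% and 30.8 ± 1.96%. The group ranges of this share overlapped. The 5 caseins took 50.5 to 50.9% of TPM as group means. Wap alone made up 85.6 to 91.2% of the summed TPM of the 7 genes in a library. The other 6 genes took 3.75 ± 0.216% of TPM in the NCD control group and 3.24 ± 0.302% with metformin, and on HFD 3.87 ± 0.152% and 3.06 ± 0.32% (SD, n = 4). By share of counts in place of TPM, the 7 genes took 21 ± 1.01%, 19.3 ± 0.439%, 21.9 ± 1.21% and 20.1 ± 2.22% in the same order of groups (SD, n = 4).

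Differences between groups were tested in 1 edgeR quasi-likelihood fit across all 12506 genes, and a gene with an adjusted p (Benjamini-Hochberg) under 0.05 is called. For HFD control against NCD control, none of the 7 genes was called, in a comparison that called 0.064% of all genes. For HFD metformin against NCD metformin, none was called, beside 2.36% of all genes. For metformin on NCD, Glycam1 was called, 1 of 7 beside 10% of all genes. For metformin on HFD, none was called, beside 0.168% of all genes. With both treatments averaged, the diet comparison called Glycam1, 1 of 7 beside 0.936% of all genes, and with both diets averaged, the metformin comparison called Glycam1, 1 of 7 beside 11.4% of all genes. The difference between the diet effects with and without metformin (the interaction) was called for 0% of all genes in edgeR, and for none of the 7, where 1243 genes had an unadjusted p under 0.05 and DESeq2 called 22 genes. The contrasts within a diet or treatment share control libraries, so their values are given side by side and not as independent observations.

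Counted by overlap of CPM between the 4 libraries of each group, Glycam1, Trf, Ltf and Spp1 did not overlap between HFD control and NCD control, 4 of 7 beside 4.12% of all genes. In TPM the Trf ranges of these groups did overlap. Between HFD metformin and NCD metformin 0 of 7 were without overlap, beside 10.2% of all genes. Between NCD metformin and NCD control, Glycam1 and Trf were without overlap, 2 of 7 beside 18.6% of all genes. Between HFD metformin and HFD control, Glycam1 was, 1 of 7 beside 6.65% of all genes. The members were chosen with results of these data known, so the counts are descriptions.

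Glycam1 (ENSMUSG00000022491.5, GRCm38 chr15:103562759-103565081, minus strand) encodes a secreted, heavily glycosylated mucin-like protein of milk, known in lymph nodes as a ligand of L-selectin on high endothelial venules. Its level was 2527, 3127, 2405 and 2849 CPM in NCD control 1 to 4 and 2030, 1195, 1492 and 1224 CPM in NCD metformin 1 to 4. It was 6544, 4555, 4586 and 3987 CPM in HFD control 1 to 4 and 1862, 2029, 3476 and 3246 CPM in HFD metformin 1 to 4. Every HFD control library lay above every other library of the study, every NCD metformin library lay below every NCD control library, and the HFD metformin libraries overlapped both NCD groups.

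On both diets Glycam1 was lower with metformin by nearly the same amount. On NCD it fell by 0.88 ± 0.22 on the log2 scale (SE, adjusted p = 0.0239, edgeR), and all 4 NCD metformin libraries were below the NCD control mean. The 95% interval was -1.34 to -0.42. On HFD the log2 fold change was -0.89 ± 0.22 (SE, adjusted p = 0.114, edgeR), which did not pass the threshold although all 4 HFD metformin libraries were below all 4 HFD control libraries. DESeq2 called the HFD comparison as well (adjusted p = 0.00672). Averaged over diets Glycam1 fell by 0.88 ± 0.15 on the log2 scale (SE, adjusted p = 0.00383, edgeR), a fold of 0.54, and 8 of 8 metformin libraries were below the pooled control mean.

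The diet difference of Glycam1 was of similar size in the other direction. HFD control against NCD control gave a log2 fold change of 0.85 ± 0.22 (SE, adjusted p = 0.226, edgeR), with all 4 HFD control libraries above all 4 NCD control libraries, and DESeq2 called it (adjusted p = 0.0236). HFD metformin against NCD metformin gave 0.84 ± 0.22 (SE, adjusted p = 0.0516, edgeR; DESeq2 adjusted p = 0.00527), with overlapping groups. Averaged over treatments Glycam1 rose by 0.84 ± 0.15 with HFD (SE, adjusted p = 0.0203, edgeR), a fold of 1.79, and 6 of 8 HFD libraries were above the pooled NCD mean. Within each treatment all 4 HFD libraries were above the NCD mean. The difference between the diet effects with and without metformin was -0.01 ± 0.30 on the log2 scale (SE, adjusted p = 0.998, edgeR), with a 95% interval of -0.66 to 0.63. Equal diet effects on the log2 scale were therefore not distinguished from effects that differ by up to that interval. The mean level in HFD metformin, 2653 ± 825 CPM, was close to that in NCD control, 2727 ± 326 CPM (SD, n = 4), a pair the design crosses in both factors and for which no test was run.

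Single libraries decided the edgeR calls of Glycam1 near the threshold. The call for metformin on NCD was lost without NCD control 1 (adjusted p = 0.0506), NCD control 2 (0.0599), NCD metformin 2 (0.0814) or NCD metformin 3 (0.0565), while the log2 fold change in these fits stayed between -0.91 and -0.79. The averaged diet call was lost without NCD metformin 3 (adjusted p = 0.0531), and, in a fit chosen after seeing the data, without both NCD control 3 and HFD metformin 4 (0.0559). HFD metformin against NCD metformin was called without NCD metformin 1 (log2 fold change 1.02, adjusted p = 0.0382) and without HFD control 1 (0.84, adjusted p = 0.0473). The averaged metformin call was kept in each of the fits without 1 library.

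**Figure D1:**
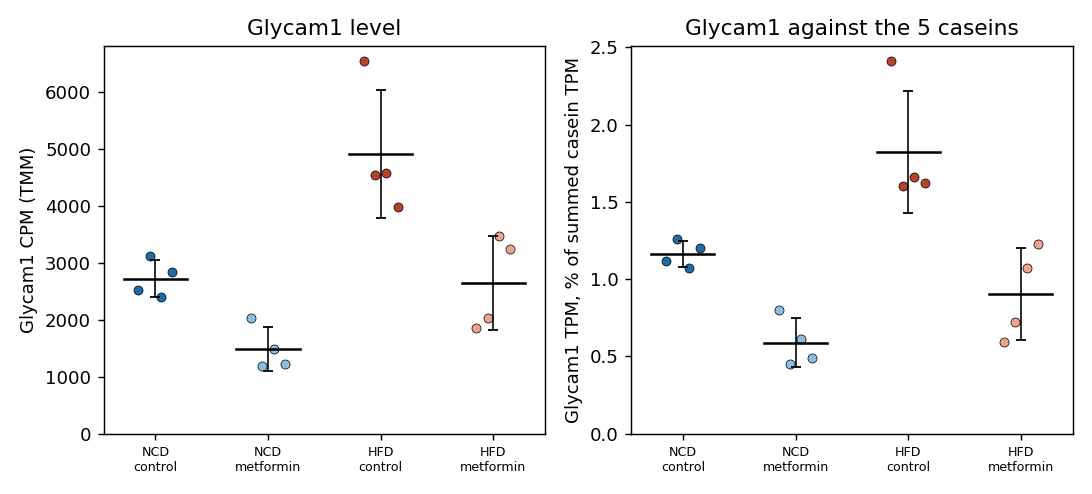
The left panel plots the Glycam1 level (CPM after TMM scaling) and the right panel its TPM as a percent of the summed TPM of the 5 caseins, by group; points are libraries, horizontal lines are means and bars are SD (n = 4). On both axes the HFD control libraries are highest, with HFD control 1 at 6544 CPM, and the NCD metformin libraries lie below all NCD control libraries.

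**Figure D2:**
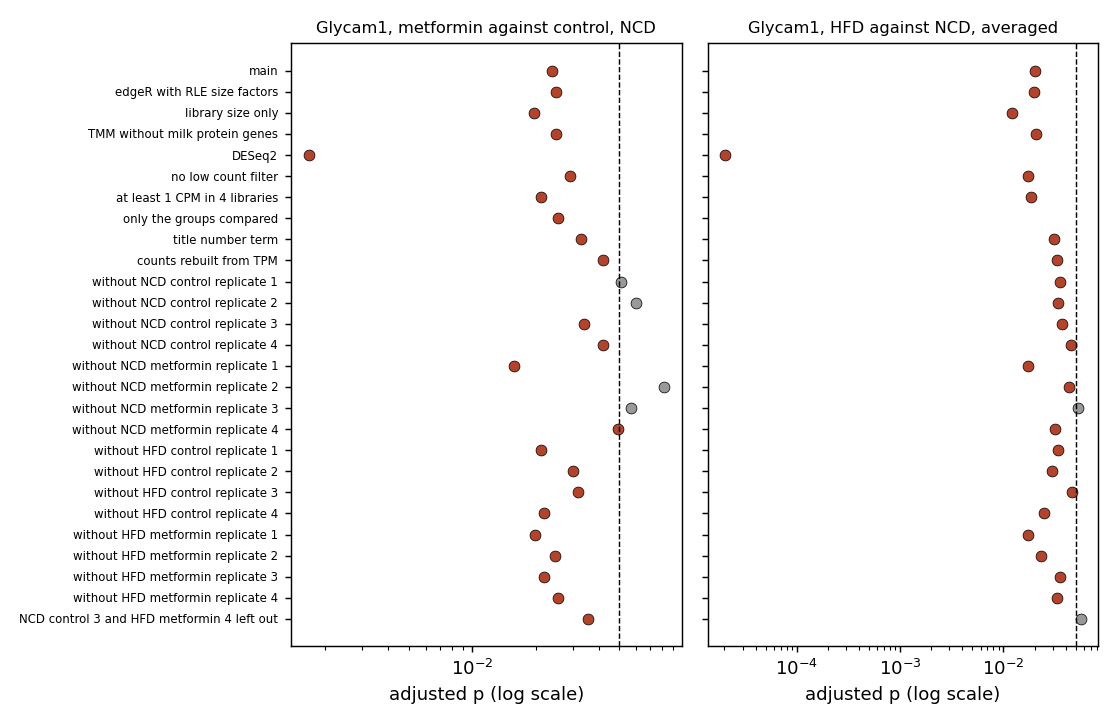
Each point is the adjusted p of Glycam1 (x axis, log scale) in 1 setting of the analysis (y axis), for metformin against control on NCD (left) and for HFD against NCD averaged over treatment (right, where the setting with only the groups compared does not apply); the dashed line is 0.05 and grey points did not pass. Grey points are the 4 fits named above for NCD and the fits without NCD metformin 3 or without both NCD control 3 and HFD metformin 4 for diet.

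The sample titles carry a number whose meaning the labels do not give, up to 10 in 7 libraries and above 10 in 9, and 3 of 4 NCD control libraries were in the lower range against 1 of 4 HFD control libraries. Within the lower and upper range, the difference in Glycam1 mean log2 CPM for metformin on NCD was -0.78 (2 libraries against 3) and -1.08 (2 against 1). For metformin on HFD it was -1.81 (1 against 1) and -0.62 (3 against 3), for HFD control against NCD control 1.29 (1 against 3) and 0.62 (3 against 1), and for HFD metformin against NCD metformin 0.26 (1 against 2) and 1.07 (3 against 2). Every difference kept its sign. With a term for the range in the edgeR fit the averaged log2 fold changes of Glycam1 were 0.87 for diet (adjusted p = 0.0309) and -0.87 for metformin (adjusted p = 0.0054).

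High endothelial venules, where Glycam1 is also made, left few counts. Of their 6 markers 5 were under 1 CPM in every library, Chst4, the sulfotransferase of these vessels, was at 0 throughout, and the sum was 1.94 to 3.2 CPM in NCD control, 3.05 to 4.31 in NCD metformin, 1.71 to 3.23 in HFD control and 1.93 to 3.23 in HFD metformin. Luminal markers summed to 3821 to 4820 CPM in NCD control, 3868 to 5461 in NCD metformin, 5011 to 5845 in HFD control and 4378 to 5105 in HFD metformin. This sum was higher in HFD control than in NCD control without overlap, as Glycam1 was, and its part in the Glycam1 difference was not tested. Of the 3 Glycam1 transcripts listed, Glycam1-201 held 97.6 to 98.5% of the gene's TPM in each library. No 31-base stretch of the coding sequence of its main transcript occurred in another gene of GENCODE M21.

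Wap (ENSMUSG00000000381.10, GRCm38 chr11:6635482-6638637, minus strand), the main whey protein of the mouse, was measured at 82468, 100471, 86531 and 80030 CPM in NCD control 1 to 4 and at 93013, 90968, 90261 and 101860 CPM in NCD metformin 1 to 4. In HFD control 1 to 4 it was at 113076, 127307, 105817 and 83644 CPM and in HFD metformin 1 to 4 at 121932, 99031, 140600 and 106309 CPM. Most HFD libraries lay above the NCD libraries, but the groups overlapped through HFD control 4 and HFD metformin 2.

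Neither diet nor metformin gave a called difference in Wap by edgeR. The log2 fold change of HFD against NCD was 0.30 ± 0.12 without metformin (SE, adjusted p = 0.652) and 0.31 ± 0.12 with metformin (SE, adjusted p = 0.171). Averaged over treatments it was 0.31 ± 0.09 (SE, adjusted p = 0.0957), with 7 of 8 HFD libraries above the pooled NCD mean, and DESeq2 called it (0.30, adjusted p = 0.049). Under the alternatives other than leaving out 1 library this value ranged from 0.13 to 0.33. Scaling by library size alone moved the median of all genes by -0.17 in this contrast. For metformin the averaged value was 0.11 ± 0.09 (SE, adjusted p = 0.415), with a 95% interval of -0.07 to 0.30.

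Lalba (ENSMUSG00000022991.5, GRCm38 chr15:98480400-98482721, minus strand) encodes alpha-lactalbumin, the regulatory subunit of lactose synthase. It was at 4591, 4933, 4893 and 5985 CPM in NCD control 1 to 4 and at 5565, 6381, 6765 and 6656 CPM in NCD metformin 1 to 4. It was at 4728, 5976, 5401 and 4144 CPM in HFD control 1 to 4 and at 5371, 6562, 6676 and 4334 CPM in HFD metformin 1 to 4. The metformin groups had the higher means on both diets, and all pairs of groups overlapped.

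For Lalba the metformin comparison averaged over diets gave a log2 fold change of 0.25 ± 0.10 (SE, adjusted p = 0.113, edgeR), with 7 of 8 metformin libraries above the pooled control mean. It was called only in the fit without HFD metformin 4 (0.30, adjusted p = 0.0413). The value was 0.31 ± 0.14 on NCD (SE, adjusted p = 0.158) and 0.18 ± 0.14 on HFD (SE, adjusted p = 0.637). The averaged diet value was -0.08 ± 0.10 (SE, adjusted p = 0.746), with a 95% interval of -0.29 to 0.13. Lalba and Glycam1 lie on the same chromosome, and their ratio in TPM ran from 0.157 in a NCD metformin library, where Lalba was higher, to 1.19 in a HFD control library.

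Trf (ENSMUSG00000032554.15, GRCm38 chr9:103204001-103230444, minus strand) encodes transferrin, which carries iron in plasma and in the milk of rodents. Its level was 94238, 94610, 101365 and 93783 CPM in NCD control 1 to 4 and 87528, 87943, 90316 and 63283 CPM in NCD metformin 1 to 4. It was 112236, 107323, 107064 and 102459 CPM in HFD control 1 to 4 and 86467, 67779, 109889 and 106457 CPM in HFD metformin 1 to 4. After TMM scaling the control groups were tight and did not overlap between diets. In TPM they did overlap, at 17022 to 19259 in NCD control and 16894 to 18975 in HFD control. In CPM, 1 NCD metformin and 1 HFD metformin library lay far below the rest.

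No contrast of Trf was called by edgeR with TMM scaling. The averaged metformin value was -0.22 ± 0.09 on the log2 scale (SE, adjusted p = 0.135), with 6 of 8 metformin libraries below the pooled control mean, and it was called when counts were scaled by library size alone (-0.29, adjusted p = 0.0347). Within a diet, 4 of 4 NCD metformin and 3 of 4 HFD metformin libraries were below the control mean. On NCD the metformin value was -0.22 ± 0.13 (SE, adjusted p = 0.291), with no overlap between the groups, and on HFD -0.21 ± 0.13 (SE, adjusted p = 0.532). The averaged diet value was 0.17 ± 0.09 (SE, adjusted p = 0.383), and it was -0.0044 with scaling by library size alone, which moved the median of all genes by -0.17 in this contrast. The liver also makes transferrin: 6 of 8 hepatocyte markers were under 1 CPM in every library, and their sum was 9.84 to 69.1 CPM in NCD control, 21.6 to 56.1 in NCD metformin, 9.34 to 13.8 in HFD control and 6.4 to 30.7 in HFD metformin, against Trf levels of at least 63283 CPM. Of Trf's main coding sequence, 94.9% of the 31-base stretches also occur in Gm20425, a readthrough gene of GENCODE M21 that the deposited files do not list, so transcripts of that gene would count toward Trf.

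Ltf (ENSMUSG00000032496.7, GRCm38 chr9:111019271-111042767, plus strand) encodes lactoferrin, the iron-binding defence protein of milk and of neutrophil granules. It was at 1214, 1128, 1135 and 1271 CPM in NCD control 1 to 4 and at 1027, 675, 1300 and 531 CPM in NCD metformin 1 to 4. It was at 751, 1114, 943 and 926 CPM in HFD control 1 to 4 and at 567, 563, 695 and 1066 CPM in HFD metformin 1 to 4. NCD control was the highest and tightest group, above every HFD library, and each metformin group was spread over a wide range.

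Ltf was not called in any of the 7 contrasts. The averaged metformin value was -0.40 ± 0.17 on the log2 scale (SE, adjusted p = 0.135, edgeR), and it was called without NCD metformin 3 (-0.52, adjusted p = 0.0497) or without HFD metformin 4 (-0.52, adjusted p = 0.0443). The averaged diet value was -0.32 ± 0.17 (SE, adjusted p = 0.357). In TPM, Ltf was 1.15 to 1.4% of Trf over the NCD control libraries and 0.659 to 1.03% over the HFD metformin libraries. Of 10 neutrophil markers 9 were under 1 CPM in every library, Ly6g was at 0 throughout, and their sum was 1.33 to 2.39 CPM in NCD control, 0.686 to 1.58 in NCD metformin, 1.02 to 1.75 in HFD control and 0.671 to 1.25 in HFD metformin. The medians of this sum were highest in NCD control and lowest in HFD metformin, as were the Ltf means, and their part in the Ltf level was not tested.

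Cel (ENSMUSG00000026818.5, GRCm38 chr2:28555795-28563403, minus strand) encodes bile salt-stimulated lipase, an enzyme of pancreatic juice and of milk. It was at 1057, 1333, 1007 and 883 CPM in NCD control 1 to 4 and at 903, 791, 753 and 786 CPM in NCD metformin 1 to 4. It was at 1577, 1324, 1556 and 1371 CPM in HFD control 1 to 4 and at 985, 506, 1243 and 1391 CPM in HFD metformin 1 to 4. The order of the group means resembled that of Glycam1, with HFD control highest and NCD metformin lowest, but neighbouring groups overlapped.

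With TMM scaling and all 16 libraries, Cel stayed short of the edgeR threshold in every contrast. Of the metformin libraries 7 of 8 were below the pooled control mean of Cel, and within each diet all 4 were below the control mean. The averaged metformin value was -0.45 ± 0.15 on the log2 scale (SE, adjusted p = 0.0638). It was called by DESeq2 (-0.45, adjusted p = 0.0264), with scaling by library size alone (-0.53, adjusted p = 0.0367), without HFD metformin 2 (-0.34, adjusted p = 0.0493) and without HFD metformin 4 (-0.54, adjusted p = 0.032). The averaged diet value was 0.40 ± 0.15 (SE, adjusted p = 0.196), and it was called without HFD metformin 2 (0.51, adjusted p = 0.0337). HFD metformin 2 had the lowest Cel and the second lowest Trf level of the study. The pancreas is the other main source of Cel, and all 8 pancreatic acinar markers were under 1 CPM in every library, with Cpa1, a pancreatic carboxypeptidase, at 0 throughout. The annotated antisense gene Gm13381 overlaps Cel on the other strand, but of the 1770 31-base stretches of Cel's coding sequence 0 occurred, read as antisense, in an annotated transcript of another gene.

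Spp1 (ENSMUSG00000029304.14, GRCm38 chr5:104435118-104441050, plus strand) encodes osteopontin, a secreted phosphoprotein of milk, bone and activated macrophages. It was low, at 4.01, 5.79, 38.9 and 5.55 CPM in NCD control 1 to 4 and 3.77, 1.64, 1.3 and 7.32 CPM in NCD metformin 1 to 4. In HFD control 1 to 4 it was at 1.88, 2.31, 2.69 and 0.781 CPM and in HFD metformin 1 to 4 at 2.15, 1.54, 3.4 and 20.2 CPM. A level of 3 counts, the floor used here, is 0.0704 to 0.335 CPM, and the lowest library, HFD control 4, held 7 estimated counts. NCD control 3 and HFD metformin 4 stood far above the other libraries, and without them no library passed 7.32 CPM.

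The fitted values of Spp1 turned on those libraries and none was called. HFD control against NCD control gave a log2 fold change of -2.74 ± 0.89 (SE, adjusted p = 0.456, edgeR), and -1.34 without NCD control 3. HFD metformin against NCD metformin gave 0.96 ± 0.84 (SE, adjusted p = 0.571), and -0.60 without HFD metformin 4. The averaged metformin value was -0.08 ± 0.60 (SE, adjusted p = 0.952), 0.63 without NCD control 3 and -0.86 without HFD metformin 4. The difference between the diet effects was 3.70 ± 1.22 (SE, adjusted p = 0.369), and 0.74 without both libraries, a fit chosen after seeing the data. The 14 macrophage and monocyte markers, of which Itgam was under 1 CPM in every library, summed to 136 to 192 CPM in NCD control, 101 to 130 in NCD metformin, 133 to 168 in HFD control and 128 to 168 in HFD metformin. They reached 192 CPM in NCD control 3, the highest of the 16 libraries, and to 128 CPM in HFD metformin 4. The skeletal muscle sum was 3671 CPM in NCD control 3 and 1.6 CPM in HFD metformin 4. Their part in the Spp1 level was not tested.

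**Figure D3:**
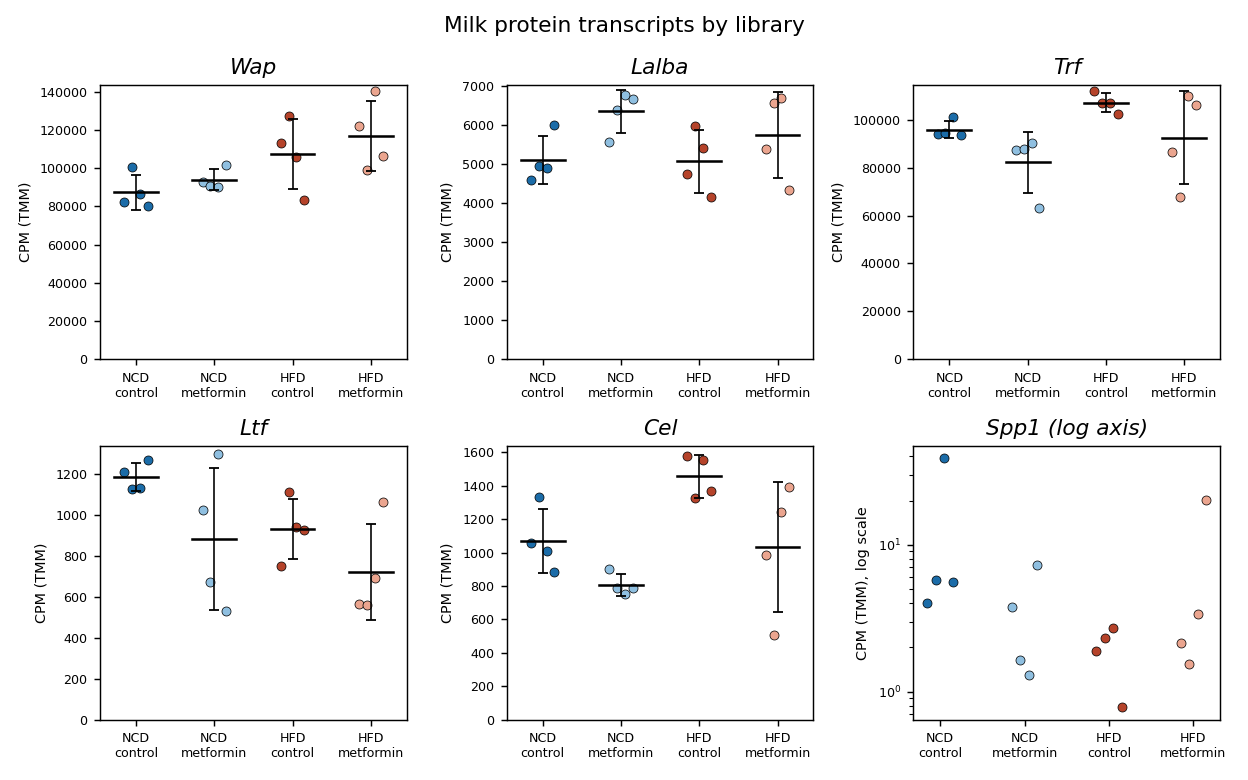
CPM after TMM scaling (y axes, which start at 0 except for the log axis of Spp1) of 6 genes in the 4 groups (x axes); points are libraries, and in all panels but that of Spp1 lines are means and bars SD (n = 4). Trf and Cel have low libraries in the metformin groups, NCD control 3 reaches 38.9 CPM for Spp1, and Wap overlaps between diets.

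**Figure D4:**
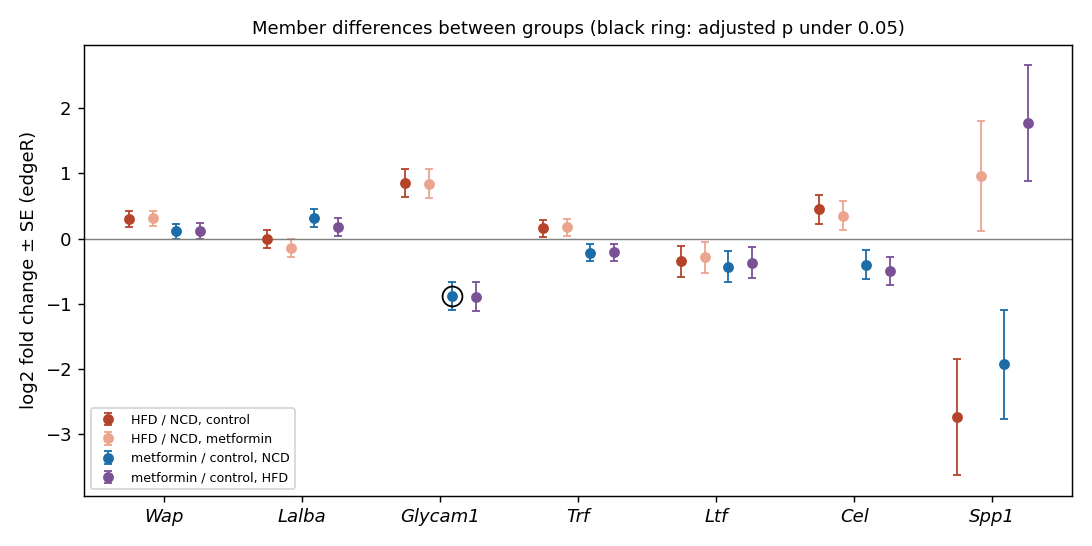
Log2 fold change ± SE (y axis) of the 7 genes (x axis) in the 4 comparisons within a diet or treatment, from edgeR over 12506 genes; a black ring marks an adjusted p under 0.05. The 1 ring is on Glycam1 for metformin on NCD (-0.88), and the Spp1 values have the widest bars.

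Since milk protein transcripts take most of each library, each gene was also set against the caseins of the same library, a ratio that does not depend on scaling between libraries. Exact two-sided permutation tests were run on the log2 ratio of TPM for 7 genes in 6 contrasts, 42 tests adjusted together by Benjamini-Hochberg. With 4 libraries against 4 the smallest p such a test can give is 0.0286, and in the averaged contrasts, permuted within the other factor, it is 0.000408. Of the 42 tests 4 passed, all in averaged contrasts. Tests of 4 libraries against 4 that reached the exact permutation p of 0.0286 had an adjusted p of 0.0923. With the number of tests at or below it here, that smallest p could not pass, so the 2 kinds of contrast are not compared.

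Glycam1 was 1.12, 1.26, 1.07 and 1.2% of casein TPM in NCD control 1 to 4 and 0.802, 0.449, 0.614 and 0.489% in NCD metformin 1 to 4. It was 2.41, 1.6, 1.66 and 1.62% in HFD control 1 to 4 and 0.593, 0.724, 1.07 and 1.23% in HFD metformin 1 to 4. The metformin groups lay below the control group of the same diet without overlap. Averaged over diets the log2 ratio fell by 1.03 with metformin (exact p = 0.000408, the smallest possible, adjusted p = 0.0171, lower in 8 of 8 libraries). Averaged over treatments it rose by 0.62 with HFD (exact permutation p = 0.00408, adjusted p = 0.0429, above the pooled NCD mean in 6 of 8 libraries). Within each treatment all 4 HFD libraries were above the NCD mean of this ratio.

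Trf and Cel also fell against the caseins with metformin. Trf was 3.69, 3.42, 3.92 and 3.47% of casein TPM in NCD control 1 to 4, 3.03, 2.91, 3.15 and 2.18% in NCD metformin, 3.7, 3.46, 3.32 and 3.54% in HFD control and 2.51, 1.99, 2.91 and 3.6% in HFD metformin. All HFD metformin libraries but the last were below the control libraries. The averaged log2 ratio of Trf fell by 0.38 (exact permutation p = 0.00163, adjusted p = 0.0229, lower in 7 of 8 libraries). Cel, at 0.0405 to 0.0643% of casein TPM in the control libraries and 0.0188 to 0.0585% in the metformin libraries, fell by 0.62 on the log2 scale (exact permutation p = 0.00163, adjusted p = 0.0229, below the pooled control mean in 7 of 8 libraries). Within each diet all 4 metformin libraries were below the control mean of this ratio. The ratio calls were close to the threshold. With Csn2 as the denominator in place of the 5 caseins, the adjusted p was 0.0549 for each of Trf with metformin, Cel with metformin and Glycam1 with diet. Without HFD control 1, 3 or 4 the calls of Trf, Cel and Glycam1 with diet were all lost (adjusted p from 0.0557 to 0.0729). Without NCD control 1, 3 or 4 those of Trf and of Glycam1 with diet were lost (0.0514 to 0.0643). Glycam1 with diet was also lost without NCD metformin 2 (0.1), 3 (0.0583) or 4 (0.0923) and without HFD metformin 3 (0.0686) or 4 (0.0543). The call of Glycam1 with metformin was kept in every fit without 1 library and with both other ratios.

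The other ratios, in TPM over the 5 caseins, stayed short of the threshold with all libraries. For Lalba against the caseins the averaged diet value was -0.30 (exact permutation p = 0.00653, adjusted p = 0.0549, below the pooled NCD mean in 7 of 8 HFD libraries), and it passed by estimated counts (-0.31, adjusted p = 0.024), with Csn2 as denominator (-0.34, 0.0343) and without NCD control 2 (-0.32, 0.0411), HFD control 2 (-0.32, 0.0386) or HFD metformin 2 (-0.35, 0.03). Within each treatment all 4 HFD libraries were below the NCD mean of the Lalba ratio. The averaged metformin and diet values of Ltf passed without HFD metformin 4 (-0.73, adjusted p = 0.0171, and -0.64, 0.0274, by the exact permutation test). Wap kept a ratio to the caseins of 45.8 to 60.9% in TPM across all libraries, and its averaged log2 difference was 0.09 for diet (exact permutation p = 0.161, adjusted p = 0.264) and 0.01 for metformin (exact permutation p = 0.817, adjusted p = 0.87).

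The genes around these proteins were described from lists of known partners, by how many members were called in edgeR. Of the 5 caseins none was called in any contrast, beside 0 to 11.4% of all genes. Their median log2 fold change was 0.24 for HFD averaged over treatments and 0.12 for metformin averaged over diets, against -0.00 and -0.01 over all genes. Scaling by library size alone moved the median of all genes by -0.17 in the averaged diet contrast. By mean share of counts the caseins took 49.8% in NCD control and 51.4% in HFD control, and 51.1% in NCD metformin and 53.4% in HFD metformin. Of 19 tested regulators of milk protein genes, 6 fell with metformin on NCD and none rose, in the contrast that called 10% of all genes: Stat3, Stat5b, Ets2, Nr3c1, Jak2 and Cebpb, of which Ets2 and Nr3c1 are named after their values were seen. The list's median in that contrast was -0.08. Stat5b, a transducer of prolactin, went from 51.9 CPM in NCD control to 31.8 in NCD metformin (log2 fold change -0.71 ± 0.20 SE, adjusted p = 0.0364), and Jak2, the kinase of the prolactin receptor, from 25.3 to 16.6 CPM (-0.61 ± 0.17 SE, adjusted p = 0.0358). On HFD none of the 19 was called with metformin, beside 0.168% of all genes. There Stat5b was at 37.4 CPM in the control group and 48.1 with metformin (0.37 ± 0.20 SE, adjusted p = 0.471), and Jak2 at 22.9 and 24.8 CPM (0.11 ± 0.17 SE, adjusted p = 0.832). Averaged over diets Stat5b had a log2 fold change of -0.17 ± 0.14 (SE, adjusted p = 0.449). Stat3, which drives involution, fell by 0.79 ± 0.17 on NCD (SE, adjusted p = 0.0146) and by 0.46 ± 0.12 averaged over diets (SE, adjusted p = 0.0233). On HFD the Stat3 value was -0.13 ± 0.17 (SE, adjusted p = 0.793, edgeR). It was the 1 of 19 called in the averaged metformin contrast, beside 11.4% of all genes.

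Of 12 genes for making lactose, for which Lalba is the last switch, 3 rose with metformin averaged over diets and none fell, beside 11.4% of all genes called in either direction, among them Galk1 (0.47 ± 0.07 SE, adjusted p = 0.00222) and Pgm2 (0.43 ± 0.12 SE, adjusted p = 0.0364), in edgeR. Galk1 phosphorylates galactose, and its mean went from 11.6 to 15.9 CPM on NCD and from 10.1 to 14.2 CPM on HFD. Pgm2 is a phosphoglucomutase, with means of 6.82 and 9.33 CPM on NCD and 7.35 and 9.76 CPM on HFD. The list's median in that contrast was 0.14.

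Of 14 genes of iron handling beside Trf and Ltf, 1 rose and 2 fell with metformin averaged over diets, beside the same 11.4% of all genes. Ftl1, the light chain of ferritin, the iron store, rose by 0.54 ± 0.10 (SE, adjusted p = 0.00472, edgeR), Cp, the ferroxidase ceruloplasmin, fell by 0.31 ± 0.08 (SE, adjusted p = 0.0288) and Hmox1, which frees iron from haem, fell by 0.68 ± 0.18 (SE, adjusted p = 0.0244). For Cp the metformin value was -0.51 ± 0.12 on NCD (SE, adjusted p = 0.0189, edgeR) but -0.10 ± 0.12 on HFD (SE, adjusted p = 0.756). None of the 14 was called in the averaged diet contrast, beside 0.936% of all genes. Of 8 tested lipases and lipolysis genes related to Cel's work on milk fat, 1 was called with metformin averaged over diets, a share near the 11.4% of all genes: Gpihbp1, the capillary anchor of lipoprotein lipase, rose by 0.33 ± 0.10 (SE, adjusted p = 0.0402). The medians of these lists were 0.05 and 0.06.

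Of 11 tested integrins and other partners of Spp1, 3 fell with metformin averaged over diets and none rose, beside 11.4% of all genes called. Thbs1, thrombospondin 1, fell by 1.46 ± 0.39 (SE, adjusted p = 0.0274, edgeR). Its means were 65.3 and 14.6 CPM on NCD (-2.16 ± 0.56 SE, adjusted p = 0.0276). On HFD they were 40.5 and 24.4 CPM, which was not called (-0.75 ± 0.54 SE, adjusted p = 0.599). The integrin subunits Itgb3 and Itga9 fell by 0.68 ± 0.20 and 0.63 ± 0.19 (SE, adjusted p = 0.0414 and 0.0402), from mean levels under 2 CPM. Itgav, an integrin subunit that binds osteopontin, rose with HFD averaged over treatments by 1.01 ± 0.20 (SE, adjusted p = 0.0321). It was called between the metformin groups (1.38 ± 0.29 SE, adjusted p = 0.0322) and not between the control groups (0.63 ± 0.28 SE, adjusted p = 0.675). The median of the list was -0.21 for metformin and 0.04 for diet.

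Of 21 tested genes for other soluble or granule proteins of milk and glandular secretions, 7 fell and 1 rose with metformin averaged over diets, beside 11.4% of all genes called, with a median log2 fold change of -0.39 against -0.01 over all genes. Pip, prolactin-induced protein, fell by 4.41 ± 0.86 with metformin on NCD (SE, adjusted p = 0.0109, edgeR) and was also called in the averaged contrast (adjusted p = 0.00182), with means of 33.8 and 1.59 CPM in NCD control and NCD metformin and 46.2 and 5.05 CPM in HFD control and HFD metformin. On HFD alone Pip was not called (-3.18 ± 0.80 SE, adjusted p = 0.126, edgeR), and its SD in HFD control was 51.2 CPM. Prol1 fell by 2.42 ± 0.47 with metformin (SE, adjusted p = 0.00674) and by 4.15 ± 0.49 with HFD averaged over treatments (SE, adjusted p = 0.000997), and Car6, a secreted carbonic anhydrase, fell by 2.40 ± 0.43 with metformin (SE, adjusted p = 0.00423). For Prol1 the metformin value was -3.31 ± 0.63 on NCD (SE, adjusted p = 0.01, edgeR) and -1.53 ± 0.73 on HFD (SE, adjusted p = 0.393).

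Likeness across the libraries was measured as Pearson's r of log2 CPM over the 16 libraries with 10246 genes of at least 1 CPM, as a description without a test, since the libraries share groups and scaling. The genes most like Glycam1 were Mfge8, a protein of the milk fat globule (r = 0.89, Spearman's rho 0.89), Nucb2 (0.89, rho 0.90) and Aldh1l2 (0.88, rho 0.91). Those most like Wap were Folr1, the folate receptor (0.94, rho 0.94), Csn1s2a, a casein (0.88, rho 0.84), and Cr1l (0.87, rho 0.86). Those most like Lalba were Papss1 (0.94, rho 0.93), Ostf1 (0.88, rho 0.85) and Slc52a2, a riboflavin transporter (0.88, rho 0.84). For Cel they were Erlec1 (0.95), Ptgs1 (0.90) and Gsdmc (0.89), for Trf Cpsf3 (0.85), Cel (0.83) and Naa15 (0.81), for Ltf Ndrg3 (0.84), Npnt (0.83) and Sbno2 (0.82) and for Spp1 Gstk1 (0.83), Tmem62 (0.78) and Nudt19 (0.76).

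Among the 7 genes themselves, Glycam1, Trf and Cel ran together over the 16 libraries: r was 0.81 for Glycam1 and Cel (rho 0.88), 0.77 for Glycam1 and Trf (rho 0.89) and 0.83 for Trf and Cel (rho 0.84). Lalba ran the other way, with r of -0.64 against Cel (rho -0.70) and -0.53 against Glycam1 (rho -0.48). Wap and Lalba had an r of 0.24 (rho 0.14).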

How the data were processed

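RNA sequencing of 16 libraries, 4 per group, was analysed from transcript tables in the format of Salmon. For each of 58204 transcripts the authors deposited TPM together with an estimated count, per the file headers. TPM as deposited is relative to effective coding length: 56929 of 56929 listed lengths that could be compared were within 3 bases of the GENCODE M21 coding length, so untranslated regions are not measured. Salmon 1.3.0, DESeq2 1.28.1 and GRCm38.p6 are named per the submitters' processing notes, and for their options nothing is given in the sources used here. Summing over 57452 transcripts gave estimated counts for 22196 genes, which were rounded. The other 752 transcripts held 0.165 to 0.218% of a library's counts.

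Counts were tested with edgeR 4.0.16 in R 4.3.3 (filterByExpr by group, TMM, quasi-likelihood test, two-sided, 4 group means, 12 residual and 4.38 prior degrees of freedom, biological coefficient of variation 0.233), with Benjamini-Hochberg adjustment over 12506 genes. The fit was also run on simulated data, and the outcome is not reported here. CPM follows TMM scaling. Exact permutation tests of ratios used Python 3.11.15. Over 120 pairs of libraries the smallest chi-square divided by its degrees of freedom was 13.28, so none looked like a repeated deposit. The floor of 3 counts covers counting error only: with no molecular identifiers, reads may be PCR copies.

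Named were all 7 members in every contrast, up to 4 tested genes of each list with the lowest p over 6 contrasts, the caseins as reference, and the 3 genes most like each member. Of the genes the rule names, 1 is not reported here. The members and lists were chosen with earlier results of these data known. Alternatives were DESeq2 1.42.0, other scalings, filters, a title number term, counts rebuilt from TPM, and leaving out libraries. 1 of them, without both NCD control 3 and HFD metformin 4, was chosen after seeing the data.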

Additional observations from a re-analysis of the deposited data

Results flagged for a closer look

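In 56 comparisons of a gene within a group of 4 libraries (7 genes, CPM and percent of casein TPM), 8 had a highest or lowest library whose gap to the next exceeded Dixon's 95% critical share of the range, and chance flags about 1 in 20 groups. Spp1 stood out in NCD control 3, at 38.9 CPM against 4.01, 5.55 and 5.79 in the others of its group, and in HFD metformin 4, at 20.2 CPM against 1.54, 2.15 and 3.4. As a percent of casein TPM it was 0.00467 in NCD control 3 and 0.00211 in HFD metformin 4. Trf was highest in NCD control 3, at 101365 CPM against 93783 to 94610, and lowest in NCD metformin 4, at 63283 CPM against 87528 to 90316. Glycam1 was 2.41% of casein TPM in HFD control 1, against 1.6, 1.62 and 1.66% in the others of its group. Ltf was 0.0372% of casein TPM in HFD metformin 4, against 0.0171, 0.0173 and 0.0192%. NCD control 3 also held the skeletal muscle markers at 3671 CPM, whose part in these values was not tested.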

How the results depend on the processing

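Of 784 log2 fold changes of the 7 genes with 1 library left out, 738 kept their direction and side of the threshold, as did 448 of 469 under other alternatives, and 628 of 672 and 77 of 84 ratios to casein. DESeq2 called 1 of the 7 genes for diet without metformin, 1 for diet with metformin, 1 for metformin on HFD, 2 for diet averaged and 2 for metformin averaged. Over all genes, the alternatives other than leaving out 1 library called at most 65, 769, 170, 1595 and 1939 in the same order. The main fit called 8, 295, 21, 117 and 1424. Scaling by library size alone called 3 for metformin averaged, and it moved the median of all genes by -0.16 (diet without metformin), -0.18 (with metformin), -0.17 (averaged) and -0.07 (metformin). Without NCD control 3 and HFD metformin 4 together, 0 were called for diet averaged and 3 for metformin averaged. With 1 library left out the count was 0 to 1 for diet with metformin, 0 to 1 for metformin on NCD, 0 to 2 for diet averaged and 1 to 4 for metformin averaged, and 1 to 5 ratio tests passed. With Csn2 as the denominator 2 ratio tests passed. Shares by counts were 21, 19.3, 21.9 and 20.1%. The cause of these changes was not tested. No paired analysis was possible because the labels give no replicate numbers shared between groups.

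Over all genes, calls with 1 library left out and under other alternatives ranged from 2 to 13 and 5 to 65 for diet without metformin (8 as reported), 3 to 384 and 2 to 769 for diet with metformin (295), 180 to 1461 and 619 to 1790 for metformin on NCD (1255), 3 to 44 and 1 to 170 for metformin on HFD (21), 28 to 180 and 35 to 1595 for diet averaged (117), 711 to 1505 and 880 to 1939 for metformin averaged (1424) and 0 to 1 and 0 to 22 for the interaction (0).

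Sign changes, 65 in 20 results, were under 0.1 in size for 53 values and at most 0.63. Scaling by library size alone gave log2 values for Trf of -0.0032 for diet without metformin, -0.0056 with metformin, -0.0044 averaged and -0.0024 for the interaction, and for Wap -0.0036 for the interaction. The title number term gave interactions of -0.00046 for Wap and -0.00065 for Trf, and counts rebuilt from TPM -0.0055 for Trf. Without both NCD control 3 and HFD metformin 4, Spp1 was -0.61 for diet with metformin, and the interactions were -0.086 for Trf and -0.17 for Ltf. The ratio of Cel was -0.0092 for diet with metformin over Csn2, and that of Wap -0.005 for metformin on HFD by estimated counts.

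With 1 library left out, Lalba ranged from -0.10 to 0.07 for diet without metformin, and Spp1 from -0.60 to 1.65 for diet with metformin and -0.86 to 0.63 for metformin averaged. Interactions ranged from -0.096 to 0.11 for Wap, -0.18 to 0.18 for Glycam1, -0.089 to 0.13 for Trf, -0.19 to 0.30 for Ltf and -0.27 to 0.13 for Cel. Ratios to casein ranged, for Wap, from -0.039 to 0.048 (metformin on NCD), -0.054 to 0.08 (on HFD) and -0.023 to 0.044 (averaged), for Lalba from -0.038 to 0.14 (metformin on HFD), for Trf from -0.19 to 0.093 (diet with metformin) and -0.12 to 0.023 (diet averaged), for Cel from -0.18 to 0.36 (diet with metformin), and for Spp1 from -0.59 to 0.74 (diet with metformin) and -0.79 to 0.013 (metformin averaged).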
